A study of Mus musculus with 48 samples.

Results

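The 9 genes described here encode calcium/calmodulin-dependent kinases and the scaffold of the excitatory synapse, namely *Camk2a*, *Camk2b*, *Camk4*, *Nrgn*, *Dlg3*, *Dlg4*, *Shank1*, *Shank2* and *Shank3*. They were taken as a named list from the 46983 genes that the count tables hold, and all 9 were found by matching the Ensembl identifiers to symbols. Each had more than 10 counts in total and entered the tests, which covered 19970 genes. The RNA came from the brains of C57Black/6 male mice 3 months old in 11 groups. The labels place the samples in the cortex around the injury, whereas the study speaks of bulk samples that took in most of the hemisphere on the injured side, so how much tissue other than cortex they held is not settled here. Controls were intact cortex (4 libraries). MCAO mice had the middle cerebral artery coagulated and cut for good, which leaves a small infarct in the parietal cortex, and were sampled at 3 h, 12 h, 24 h, day 3 and day 7 (5 libraries each, and 4 at 24 h). Sham mice went through the same operation without the coagulation and were sampled at the same times (4 libraries each). Per the labels the sampled region held both injured and uninjured tissue, so a level is an average over both, and in such bulk tissue fewer neurons and less RNA per neuron cannot be told apart. The labels name replicates A to E and the study speaks of mice per condition, but nothing ties each library to 1 mouse, so p-values measure the spread between libraries.

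When calcium enters a dendritic spine through NMDA receptors it binds calmodulin, which switches on calmodulin-dependent protein kinase II (CaMKII). *Camk2a* and *Camk2b* encode its alpha and beta subunits, which assemble into one large holoenzyme that is among the most abundant proteins of forebrain synapses. *Nrgn* encodes neurogranin, a small protein that holds calmodulin while calcium is low and lets it go when calcium rises. *Camk4* encodes a kinase that acts mainly in the nucleus, where it phosphorylates the transcription factor CREB. Beneath the membrane, PSD-95 (*Dlg4*) and its relative SAP102 (*Dlg3*) hold the glutamate receptors in place, and the Shank proteins (*Shank1*, *Shank2* and *Shank3*) form the deeper layer that ties them to the actin cytoskeleton.

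The libraries were sequenced from the 3′ end of polyadenylated RNA, so a gene yields reads near the end of its transcripts and the count depends little on transcript length. Levels are given as CPM, the counts of a gene scaled to a common library total after TMM normalization, and fold changes as log2 values with their standard error (SE). Each library held 1522668 to 2826735 counts on genes, and counting error is small for most of these genes, with a median of 24162 counts per library for *Nrgn* and 7470 for *Camk2a*, but larger for *Shank2* (102.5) and *Shank3* (43.5). The fit gave the typical gene a coefficient of variation between libraries of 24.9%. Libraries of one group correlated with each other at a mean r of 0.885 or more, and 5 of them (12 h sham A and C, 12 h MCAO D, day 3 MCAO A and day 7 MCAO C) lay under 0.9. Markers of neurons were present throughout, with a summed level of 12 pan-neuronal markers from 7361 to 13398 CPM. Markers of tissue next to the cortex varied between libraries within every group, and the summed level of 7 striatal markers (of 8, *Drd2* having too few counts) ran from 158 to 4087 CPM.

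Promoter sequence is shown for members on both sides of the results, *Shank3* and *Nrgn*, whose levels fell, and *Camk2b*, whose level did not pass the test. RefSeq promoter entries on GRCm38.p6 were matched for 5 of the 9 members (*Camk2b*, *Dlg3*, *Dlg4*, *Nrgn* and *Shank3*). The stretches are those of the 250 bases before the RefSeq start that lie outside every exon of the Gencode annotation, written 5′ to 3′ along the gene's own strand, with GC boxes (GGGCGG on either strand, overlaps counted) in capitals. The first lies at chr15:89499358-89499607 (plus strand), the second at chr9:37552905-37552995 (minus strand) and the third at chr11:6065749-6065998 (minus strand).
Shank3: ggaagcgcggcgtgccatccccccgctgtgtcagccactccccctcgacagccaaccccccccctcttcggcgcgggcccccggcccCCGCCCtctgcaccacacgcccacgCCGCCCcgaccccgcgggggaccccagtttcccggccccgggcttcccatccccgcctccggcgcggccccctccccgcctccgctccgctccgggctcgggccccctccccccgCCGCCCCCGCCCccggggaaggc
Nrgn: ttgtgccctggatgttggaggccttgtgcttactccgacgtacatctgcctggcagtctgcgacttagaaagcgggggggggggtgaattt
Camk2b: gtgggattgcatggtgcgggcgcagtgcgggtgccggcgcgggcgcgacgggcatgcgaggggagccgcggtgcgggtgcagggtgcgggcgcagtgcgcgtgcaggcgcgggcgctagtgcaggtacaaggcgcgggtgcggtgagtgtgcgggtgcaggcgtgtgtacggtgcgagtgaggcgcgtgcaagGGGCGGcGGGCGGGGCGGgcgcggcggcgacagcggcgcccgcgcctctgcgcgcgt
The *Shank3* stretch held 4 GC boxes and the *Camk2b* stretch 3, and the *Nrgn* stretch held none, although the whole *Nrgn* window of 250 bases held 1. Of all 32851 RefSeq promoters in windows of this length, 32.7% held a GC box. The cAMP response element, the palindrome TGACGTCA to which CREB binds, was not in the window of any of the 3 genes, nor was its half-site TGACG, and 1.55% and 17.8% of all promoters held them. The sequences differed in base composition too, with 31 CpG dinucleotides in the *Shank3* window, 44 in that of *Camk2b* and 11 in that of *Nrgn*.

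Across the 48 libraries *Nrgn* had the highest level of the 9, with a mean of 12646 CPM, followed by *Camk2a* with 3766 CPM. *Camk2b* (792 CPM), *Dlg4* (609 CPM) and *Shank1* (519 CPM) lay in the middle, *Camk4* (284 CPM) and *Dlg3* (165 CPM) below them, and *Shank2* (53.8 CPM) and *Shank3* (22.0 CPM) lowest. These are levels of 3′ reads, and the share of a gene's transcripts that the kit captures was not measured. *Camk2b* varied least over the libraries, with a coefficient of variation of 16.4%, and *Shank1* varied most (41.4%). The group with the lowest mean was an MCAO group for every one of the 9 genes, on day 7 for *Camk2a*, *Camk4*, *Shank1* and *Nrgn*, on day 3 for *Camk2b* and *Dlg3*, at 24 h for *Dlg4* and *Shank3* and at 12 h for *Shank2*. When the 11 groups were put in order of their means, the ranges of each group and its neighbour overlapped in all 10 pairs for every gene.

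**Figure D1:**
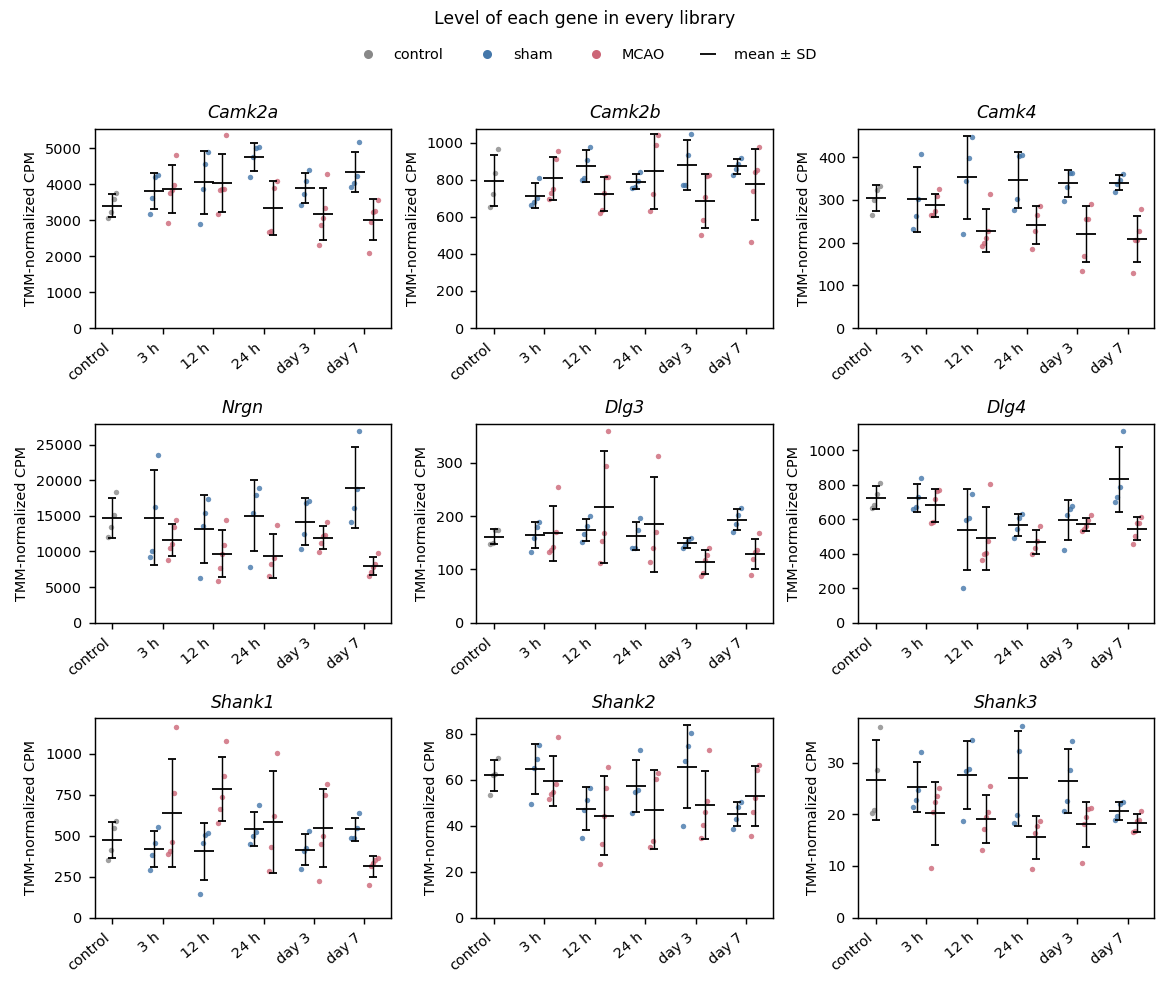
TMM-normalized level (CPM, linear axis from 0) of the 9 genes in every library, by time after surgery, with control in grey, sham in blue and MCAO in red. Each point is 1 library and the black marks are the group mean ± SD. For *Nrgn* on day 7 all 5 MCAO libraries lie at 6605 to 9846 CPM and all 4 shams above them, while *Shank1* lies above its shams at 12 h and below them on day 7.

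To ask whether the occlusion changed these genes beyond the surgery, each MCAO group was compared with the sham of the same time in one edgeR quasi-likelihood fit of all libraries, with Benjamini-Hochberg adjustment over all genes tested and a threshold of 0.05. When the 5 times were weighted equally, 4 of the 9 genes fell, namely *Nrgn*, *Camk4*, *Shank3* and *Camk2a*, and none rose. Among all genes 14.2% passed in this contrast and 5.08% passed with a lower level. The genes tested needed only more than 10 counts in total, whereas the 9 genes had means of 22.0 CPM or more. A share among genes of like level was not taken, and the 9 genes and all lists were chosen with earlier results of these data known. At single times the count was 0 of 9 at 3 h, 12 h and 24 h, when 0.225%, 1.24% and 0.195% of all genes passed, 1 of 9 on day 3 (8.07% of all genes, 1.68% lower) and 3 of 9 on day 7 (8.95% of all genes, 3.9% lower), and every member that passed was lower after MCAO. At an unadjusted p under 0.05 the counts were 0, 3 and 4 at the first 3 times, against 8.17%, 14.2% and 8.58% of all genes. By DESeq2 0, 1 and 0 members passed there, against 0.944%, 3.39% and 0.857% of the genes that it gave an adjusted p. Estimates below 0 numbered 5, 7, 6, 8 and 8 of 9 in the order of the times, with a median over the 9 genes of -0.07, -0.14, -0.29, -0.36 and -0.58, against medians over all genes tested of 0.00 to 0.06. The signs at 3 h of *Camk2a* and *Dlg3* turned with the scaling to spike-ins. Under the stricter thresholds of the study (an adjusted p under 0.01 with a log2 fold change beyond 0.58 in either direction) *Nrgn* alone passed, on day 7 (3.32% of all genes) and over the 5 times (4.76%).

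On day 7 only 1 member passed without MCAO C or without sham D, when 955 and 702 genes passed against 1787 with all libraries. On day 3 none passed without MCAO C, MCAO E, sham A, sham B or sham D. The genes that passed then numbered 906, 992, 1186, 1191 and 1063 in that order, against 1611 with all libraries. A test of whether the MCAO effect varied over the 5 times passed for none of the 9 genes (1.94% of all genes passed, lowest member adjusted p = 0.181 for *Shank1*, and 1 member at an unadjusted p under 0.05, as 17.3% of all genes were), so the effects are not shown to differ between times.

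**Figure D2:**
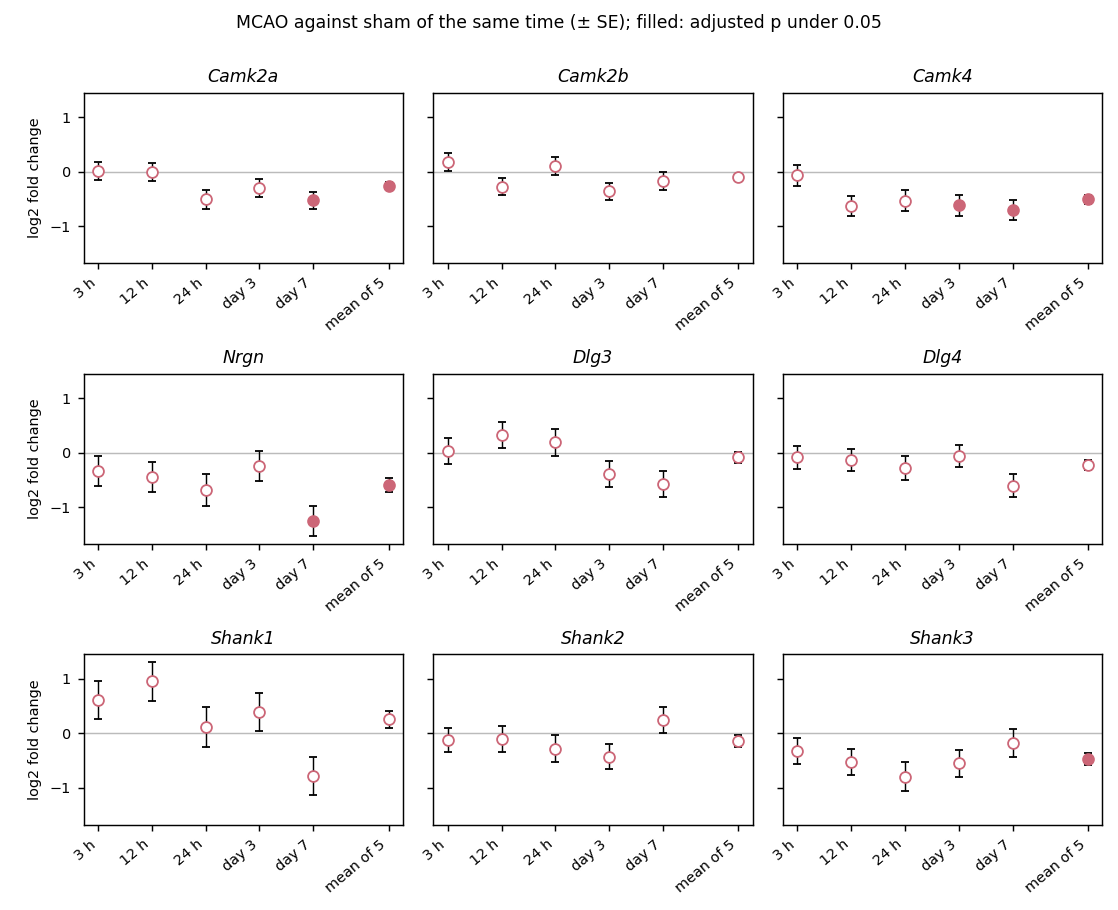
Log2 fold change of MCAO against the sham of the same time for each of the 9 genes (y axis, bars are ± SE), at the 5 times and for the mean of the 5 (x axis). Filled points passed the test (adjusted p under 0.05) and open points did not, and the filled points are *Camk4* on day 3, *Nrgn*, *Camk4* and *Camk2a* on day 7, and these 3 with *Shank3* in the mean, all below 0.

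*Nrgn* (chr9:37544492-37552904, minus strand, GRCm38) had the steepest fall. On day 7 its levels in the MCAO libraries were 6605, 7104, 7840.3, 8298 and 9846 CPM, and in the shams 14069, 16142, 18777 and 26888 CPM. The groups did not overlap, and the MCAO libraries lay closer together than the shams, of which sham D was far above the rest. The log2 fold change was -1.26 ± 0.28 (a ratio of 0.419, adjusted p = 0.0031 by edgeR). Averaged over the 5 times the fold change was -0.59 ± 0.12 (adjusted p = 0.000724).

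At the earlier times *Nrgn* was lower on average after MCAO but the groups overlapped. At 24 h the MCAO libraries held 6539, 8176, 9076 and 13705 CPM and the shams 7872, 15369, 17905 and 18926 CPM, with 1 sham among the MCAO values (log2 fold change -0.68 ± 0.29, adjusted p = 0.497). The values were -0.34 ± 0.28 at 3 h, -0.44 ± 0.28 at 12 h and -0.24 ± 0.28 on day 3, none of which passed. Against the control libraries, at 12002, 13375, 15060.5 and 18363 CPM, the day 7 fold change was -0.89 ± 0.28 (adjusted p = 0.065). The mean of the day 7 shams, 18969 ± 5620.0 CPM (SD, n = 4), was the highest of the 11 groups, and their difference from control was 0.37 ± 0.29 (adjusted p = 0.764).

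*Camk4* (chr18:32934931-33191228, plus strand) fell on day 3 and on day 7, the only member to pass at 2 times. The day 3 levels were 134, 168, 254, 255 and 289.6 CPM after MCAO and 297, 331, 363 and 363 CPM in sham, with all MCAO libraries below the lowest sham. The log2 fold change was -0.62 ± 0.19 (adjusted p = 0.0291). On day 7 the levels were 129, 206, 207, 226 and 279 CPM and 318, 336, 346 and 359 CPM, again apart (log2 fold change -0.70 ± 0.19, adjusted p = 0.0131). The day 3 call was lost without MCAO C (-0.49, adjusted p = 0.141), MCAO E (-0.55, 0.111), sham A (-0.58, 0.081), sham B (-0.58, 0.0802) or sham D (-0.64, 0.0574), and the day 7 call without MCAO C (-0.58, adjusted p = 0.0645) or sham D (-0.69, 0.0528). The day 3 call was also lost when the 2 groups were fitted alone (-0.62, adjusted p = 0.0684), and the day 7 call with spike-in scaling (-0.59, adjusted p = 0.106).

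Estimates for *Camk4* of about the same size stood at 12 h and 24 h without passing. At 12 h the levels were 192, 198, 210.2, 226 and 314 CPM after MCAO and 220.3, 344, 397 and 448 CPM in sham, where MCAO D was the highest of its group and sham C the lowest of its own. The log2 fold change of -0.63 ± 0.19 had an adjusted p of 0.0817, which became 0.0217 without MCAO D and 0.0346 without sham C. Over all 18 alternative settings, single libraries left out among them, the value ranged from -0.84 to -0.49 and the adjusted p from 0.0179 to 0.322. At 24 h the log2 fold change was -0.53 ± 0.20 (adjusted p = 0.383), and at 3 h -0.07 ± 0.19. Over the 5 times *Camk4* had the smallest adjusted p of the 9 genes, with a mean log2 fold change of -0.51 ± 0.09 (adjusted p = 1.62e-05), and the call held without each library in turn.

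*Camk2a* (chr18:60925618-60988152, plus strand), the alpha subunit of CaMKII, fell on day 7. Its levels were 2086, 2951, 3235, 3245 and 3569 CPM after MCAO and 3935, 4040.2, 4222 and 5167 CPM in sham, and every MCAO library lay below every sham. The log2 fold change was -0.52 ± 0.16 (a ratio of 0.695, adjusted p = 0.0308). This call was lost without MCAO C (-0.44, adjusted p = 0.122), MCAO E (-0.52, 0.0522), sham A (-0.54, 0.0511) or sham D (-0.44, 0.158), and with spike-in scaling (-0.41, adjusted p = 0.224).

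The groups were apart for *Camk2a* at 24 h as well, with 2681, 2699, 3882 and 4094 CPM after MCAO and 4194, 4756, 5001 and 5030.0 CPM in sham. The log2 fold change was -0.51 ± 0.17, near that of day 7, with an unadjusted p of 0.00477 and an adjusted p of 0.285. The MCAO libraries formed 2 pairs there, and the 24 h shams had the highest mean of the 11 groups, 4745 ± 388 CPM (SD, n = 4) against 3406 ± 319 CPM in control. The values were 0.02 ± 0.16 at 3 h, -0.01 ± 0.16 at 12 h and -0.30 ± 0.16 on day 3. The mean over the 5 times was -0.26 ± 0.07 (adjusted p = 0.00903), the smallest of the 4 falls.

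*Camk2b* (chr11:5969644-6066362, minus strand), the beta subunit, passed in no comparison of the joint fit, and with spike-in scaling it passed on day 3 (-0.58, adjusted p = 0.0448). On day 7 its levels were 465, 737, 844, 854 and 975 CPM after MCAO and 827, 856, 886 and 918 CPM in sham, where MCAO C and E lay below the shams, MCAO A above them and the rest among them. The estimates were 0.18 ± 0.16, -0.27 ± 0.16, 0.10 ± 0.17, -0.36 ± 0.16 and -0.17 ± 0.16 in the order of the times, and the mean over them -0.10 ± 0.07 (adjusted p = 0.381). Its correlation with the mean log2 level of the striatal markers over the 48 libraries was 0.712, and that of *Camk2a* was -0.115 (Pearson's r on log2(CPM + 1), a description, since libraries share groups and dissection).

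Since both subunits enter one holoenzyme, the ratio of their levels was taken within each library, where library size cancels. *Camk2a* made up 79.1% to 85.7% of the summed level of the pair in the group means. On day 7 the log2 ratio was 1.98 ± 0.161 after MCAO (SD, n = 5) and 2.31 ± 0.181 in sham (SD, n = 4), a difference of -0.33 (exact two-sided permutation test p = 0.0238, 0.119 after adjustment over the 5 times, with 0.00794 the smallest p the test allows). At 24 h the difference was larger, -0.60, but the MCAO ratios were spread from 1.37 to 2.70 against 2.47 to 2.72 in sham (exact permutation p = 0.171, with 0.0286 the smallest possible). At 3 h, 12 h and day 3 the differences were -0.16, 0.27 and 0.05 (exact permutation p = 0.492, 0.302 and 0.841). None of the 5 passed after adjustment.

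*Dlg4* (chr11:70016942-70047522, plus strand), which encodes PSD-95, came close to the threshold without passing. On day 7 the MCAO libraries held 459, 503, 576, 579 and 616 CPM and the shams 702, 729, 788 and 1109 CPM, with no overlap and with sham D far above the others. The log2 fold change was -0.61 ± 0.20 (adjusted p = 0.0519), and the adjusted p was 0.043 without sham C, the lowest of the shams, and 0.0346 by DESeq2. In the other direction, the adjusted p was 0.170 with spike-in scaling (-0.48) and 0.826 with the pan-neuronal markers as a covariate (-0.22). Over the 5 times the mean was -0.24 ± 0.09 (adjusted p = 0.0815), with an adjusted p of 0.00341 without 12 h sham C, 0.0129 without 12 h MCAO D and 0.0415 without day 3 sham D. With spike-in scaling the adjusted p of this mean was 0.0366 (-0.28), and with the covariate 0.724 (-0.09). At 12 h sham C stood out at 202 CPM against 599 to 745 CPM in the other shams, and MCAO D at 805 CPM against 363 to 473 CPM in the other MCAO libraries.

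*Dlg3* (chrX:100767722-100818410, plus strand), which encodes SAP102, was set apart by single libraries. At 12 h the MCAO libraries held 112, 154, 167, 295 and 359.7 CPM, the upper pair being A and E, and the shams 152, 166, 181 and 199.7 CPM. At 24 h MCAO A was high at 313 CPM against 114 to 171 CPM in the others, and at 3 h MCAO C at 255 CPM against 133 to 171 CPM. No such library occurred on day 3 or day 7, and on day 7 the MCAO libraries at 89.2, 119.6, 133, 136 and 167 CPM all lay below the shams at 169.9, 185, 202 and 215 CPM (log2 fold change -0.58 ± 0.24, adjusted p = 0.124). The mean over the 5 times was -0.09 ± 0.11 and did not pass. *Dlg4* made up 69.0% ± 13.1 of the summed level of *Dlg3* and *Dlg4* at 12 h after MCAO (SD, n = 5) and 80.9% ± 3.34 on day 7 (SD, n = 5), against 81.8% ± 1.55 in control (SD, n = 4). The 12 h shams, at 72.6% ± 12.1 (SD, n = 4), lay nearly as low as the 12 h MCAO libraries and overlapped them, and the day 7 shams stood at 80.8% ± 2.73 (SD, n = 4). *Dlg3* shares were high in 12 h MCAO A (47.1%) and E (42.4%) and in 12 h sham C (45.1%). So were those of 24 h MCAO A (44.0%) and 3 h MCAO C (30.4%), and all other libraries lay lower. In the same order these libraries had 25.9%, 27.1%, 24.0%, 27.5% and 27.1% of reads not uniquely aligned, the lowest of all libraries. The median was 33.5%, and whether the *Dlg3* shares follow from this was not tested.

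*Shank1* (chr7:44310253-44360572, plus strand) was the only member with groups apart in both directions. At 12 h the MCAO libraries held 579, 659.9, 734, 864 and 1078 CPM and the shams 143, 456, 503 and 515 CPM, every MCAO library above every sham. On day 7 the MCAO libraries held 201, 313, 332, 354 and 363 CPM and the shams 483, 488, 545 and 637 CPM, every MCAO library below every sham. The log2 fold changes were 0.95 ± 0.35 (adjusted p = 0.186) and -0.78 ± 0.35 (adjusted p = 0.157), and neither passed.

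The 2 changes of *Shank1* were then compared with each other, a contrast added after the values had been seen. The MCAO against sham difference on day 7 minus that at 12 h was -1.74 ± 0.49 on the log2 scale (adjusted p = 0.0485 over all genes, of which 2.43% passed), while the test over all 5 times gave 0.181 and the other 9 pairs of times did not pass. That call did not hold up: with 1 of the 18 libraries left out the value stayed between -1.88 and -1.45, but the adjusted p ranged from 0.0383 to 0.132 and was under 0.05 only without 12 h MCAO E, 12 h sham A or day 7 sham C, and it was highest without 12 h sham C. Without the 5 libraries of lowest agreement it was -1.43 (adjusted p = 0.231). The spread between MCAO libraries was wide at the other times, from 389 to 1165 CPM at 3 h, 285 to 1003 CPM at 24 h and 226 to 816 CPM on day 3. At 12 h sham C was the lowest *Shank1* level of all libraries, and the summed striatal markers were 364 to 1389 CPM after MCAO against 632 to 2216 CPM in sham (list median -1.60, none passed). Over the 48 libraries *Shank1* had a correlation of -0.468 with the mean log2 level of these markers, and their part in the 12 h difference was not tested.

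*Shank3* (chr15:89499623-89560261, plus strand) fell over the 5 times, with a log2 fold change of -0.47 ± 0.11 (a ratio of 0.721, adjusted p = 0.00177), although it passed at no single time. Its estimates were -0.32 ± 0.24, -0.52 ± 0.24, -0.80 ± 0.27, -0.55 ± 0.24 and -0.17 ± 0.25 in the order of the times, all below 0. At 24 h the MCAO libraries held 9.35, 16.4, 17.7 and 18.6 CPM and the shams 18.4, 19.9, 32.2 and 37.2 CPM, with 1 MCAO library just above the lowest sham. On day 7 the groups overlapped, at 16.7, 16.7, 18.8, 18.8 and 20.6 CPM and 18.9, 19.6, 21.9 and 22.3 CPM. The level is low, from 21 to 79 counts per library, so single libraries carry counting error.

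*Shank2* (chr7:144001928-144424494, plus strand) passed in no comparison of the joint fit, and it passed against the day 3 sham without the 5 libraries of lowest agreement (-0.62, adjusted p = 0.0331). The mean over the 5 times was -0.14 ± 0.10 (adjusted p = 0.446), and day 7 was the one time at which it was above 0, 0.24 ± 0.24, with 35.7, 46.2, 51.9, 64.5 and 66.7 CPM after MCAO and 38.7, 42.9, 48 and 50.3 CPM in sham. Of the summed reads of the 3 Shank genes *Shank1* gave 84.1% ± 1.36 in control (SD, n = 4), 92.4% ± 1.72 at 12 h after MCAO (SD, n = 5) and 81.0% ± 4.30 on day 7 after MCAO (SD, n = 5). The shams of these times gave 81.3% ± 11.5 and 89.0% ± 1.55 (SD, n = 4 each). The share of *Shank3* was 2.28% ± 0.346 at 12 h after MCAO (SD, n = 5) and 6.86% ± 4.21 in the 12 h shams (SD, n = 4), of which sham C alone had 12.9%. *Camk4*, *Shank1*, *Shank2* and *Shank3* overlap genes on the opposite strand when whole genes with their introns are compared, and overlap of the exons was not looked at. Overlapping reads were counted in the union mode of HTSeq per the study, and 0.343% to 0.475% of reads per library were ambiguous. The strand setting of the counting is not given in the sources used here, so antisense reads among these counts are not excluded.

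**Figure D3:**
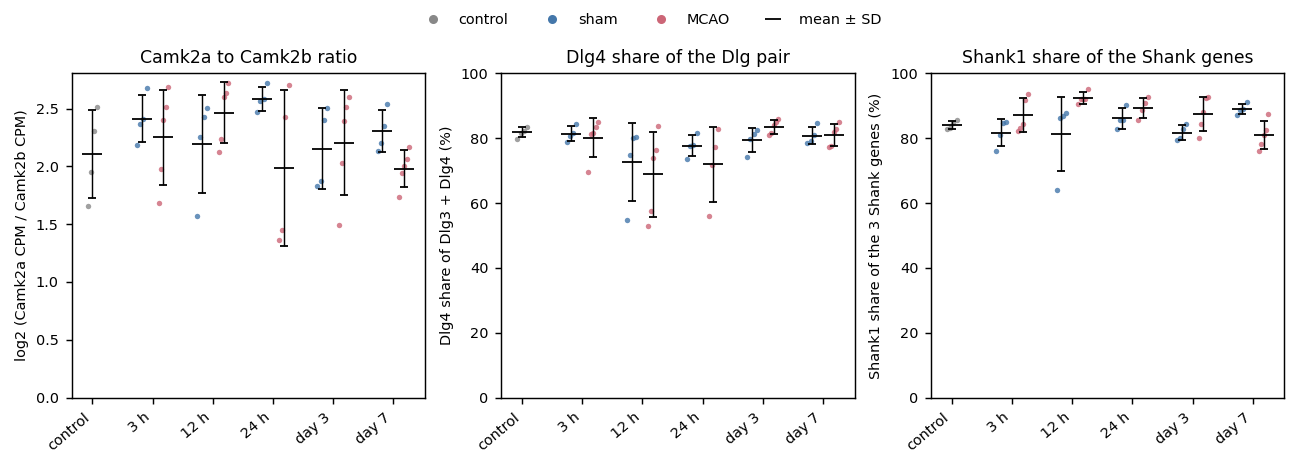
Relations within the gene families in every library, by time after surgery, with control in grey, sham in blue, MCAO in red and black marks for the group mean ± SD. From left to right the y axes give the log2 ratio of *Camk2a* to *Camk2b*, the share of *Dlg4* in *Dlg3* plus *Dlg4* (%) and the share of *Shank1* in the 3 Shank genes (%), which averages 92.4% at 12 h and 81.0% on day 7 after MCAO.

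Libraries of MCAO and sham did not overlap for 0, 1, 1, 1 and 6 of the 9 genes in the order of the times, against 3.58%, 3.29%, 5.83%, 7.14% and 10.5% of all genes. The one at 12 h was *Shank1*, higher after MCAO, the one at 24 h *Camk2a* and the one on day 3 *Camk4*, both lower. On day 7 they were *Nrgn*, *Camk4*, *Camk2a*, *Dlg4*, *Dlg3* and *Shank1*, all lower, and the exceptions were *Camk2b*, *Shank2* and *Shank3*. A fit of the day 7 MCAO and sham libraries alone, which takes the spread from these 9 libraries, passed the same 6 genes, as it did 7.95% of the 16383 genes it tested, adding *Shank1* (adjusted p = 0.0089), *Dlg4* (0.0228) and *Dlg3* (0.0356) to the 3 of the joint fit.

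The comparison with intact cortex, which the study used for differential expression in the bulk data, asks for the joint change of surgery and occlusion. For its scores of processes the study set MCAO against control and sham together. All 5 comparisons with control use the same 4 control libraries. No member passed at any time, when 0.361% (3 h), 2.14% (12 h), 0.626% (24 h), 6.66% (day 3) and 3.39% (day 7) of all genes did, and 0, 5, 3, 3 and 3 members had an unadjusted p under 0.05, against 8.98%, 15.6%, 10.8%, 19.6% and 14.8% of all genes. With spike-in scaling 1 member passed at 12 h, 4 on day 3 and 1 on day 7, when 3.44%, 10.8% and 3.16% of all genes did. The lowest adjusted p was that of *Nrgn* on day 7. By DESeq2 0, 0, 0, 0 and 1 members passed in the order of the times, against 1.7%, 5.4%, 2.04%, 10.3% and 5.88% of the genes with an adjusted p. For the genes that fell against sham the day 7 estimates were -0.54 ± 0.19 for *Camk4*, -0.17 ± 0.16 for *Camk2a* and -0.53 ± 0.25 for *Shank3*. None of the 9 passed in the mean of the 5 shams against control, where 0.0451% of all genes passed, and *Camk2a* had the largest member estimate, 0.29 ± 0.14 (unadjusted p = 0.0393, the only member under 0.05, as 4.61% of all genes were). For *Camk2a* the day 7 estimate was thus -0.17 against control and -0.52 against sham, and the difference between these estimates, which is that of sham from control, was 0.35 ± 0.17 (adjusted p = 0.632).

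Of 23 other scaffold and regulator genes of the postsynaptic density, 12 fell and 1 rose in the mean over the 5 times, with a list median of -0.25 against 0.03 for all genes tested. Of all genes 5.08% fell in that mean and 14.2% passed. This list, like the others, was chosen with earlier results of these data known, and no share among genes of like level was taken. None of the 23 passed at 3 h, 12 h or 24 h, when 0.225%, 1.24% and 0.195% of all genes did. On day 3, 7 fell and 1 rose (1.68% of all genes fell and 8.07% passed), and on day 7, 7 fell (3.9% and 8.95%). The gene that rose on day 3 and in the mean was *Homer3*, of the Homer family that links Shank proteins to metabotropic glutamate receptors. On day 3 it had a mean of 9.2 CPM after MCAO and 2.52 in sham (log2 fold change 1.85 ± 0.45, adjusted p = 0.00458), a low level. *Kalrn*, which encodes a protein that shapes dendritic spines, fell on day 7 by more than any other gene of the list, with a mean of 376 CPM after MCAO and 881 in sham (-1.23 ± 0.20, adjusted p = 9.9e-05). *Iqsec1*, an Arf exchange factor of the postsynaptic density (-1.09 ± 0.23, adjusted p = 0.00213), and *Begain*, a binding partner of PSD-95 (-0.89 ± 0.24, adjusted p = 0.0104), fell on day 7 as well.

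Of 19 other calmodulin and CaM kinase genes, 8 fell and none rose over the 5 times, with a median of -0.16. None passed at the first 3 times, when 0.225%, 1.24% and 0.195% of all genes did. On day 3, 3 fell, and on day 7, 5 fell and 1 rose. The shares of all genes that fell were 5.08% over the 5 times, 1.68% on day 3 and 3.9% on day 7. Of the 19970 genes tested, 1009 rose on day 7. The gene that rose was *Camk2d*, the delta subunit of CaMKII, which is also expressed outside neurons, with a mean of 286 CPM after MCAO and 118 in sham (1.27 ± 0.41, adjusted p = 0.0424). Among those that fell on day 7 were *Camk2n1*, an inhibitor of CaMKII, with a mean of 5817 CPM after MCAO and 12324 in sham (-1.08 ± 0.21, adjusted p = 0.000697), *Camkk2*, a kinase that activates CaMKIV (-1.05 ± 0.18, adjusted p = 0.000178), and *Camk1g*, a CaM kinase I (-1.25 ± 0.26, adjusted p = 0.00159).

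**Figure D4:**
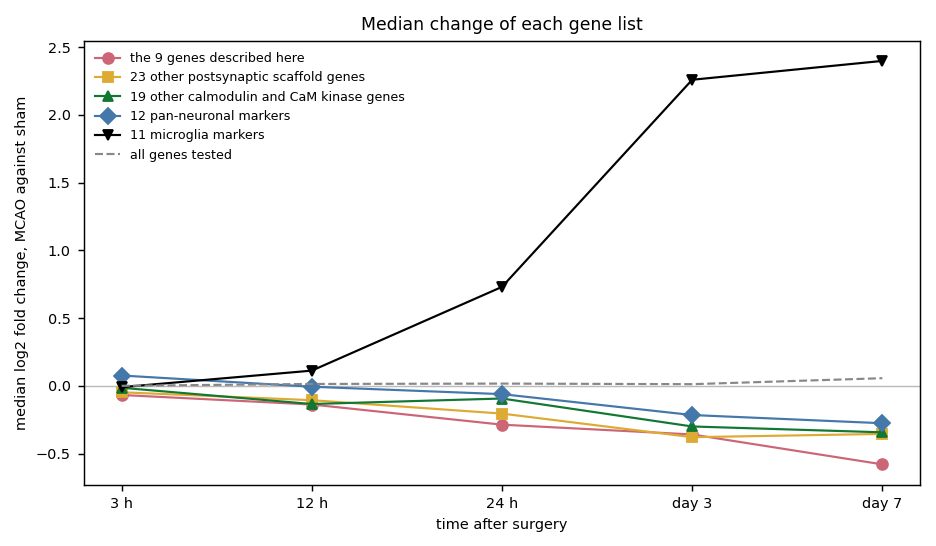
Median log2 fold change of MCAO against the sham of the same time (y axis) for 5 gene lists and for all genes tested (dashed), by time after surgery (x axis). The medians of the 9 genes go from -0.07 at 3 h to -0.58 on day 7, those of the 12 pan-neuronal markers from 0.08 to -0.28, and those of the 11 microglia markers from -0.01 to 2.40.

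Markers of cell types moved with these genes. Of all genes 0.225%, 1.24% and 0.195% passed at the first 3 times, 8.07% on day 3 (1.68% lower) and 8.95% on day 7 (3.9% lower). Over the 5 times 14.2% passed (5.08% lower). Of the 12 pan-neuronal markers 0 passed at the first 3 times, 3 fell on day 3 and 4 on day 7, with medians of -0.22 and -0.28, and their summed level was 7361 to 11065 CPM on day 7 after MCAO against 11660 to 12789 CPM in sham. Of the 11 microglia markers 10 rose on day 3 and 9 on day 7, and their summed level on day 7 was 1098 to 4922 CPM after MCAO against 496 to 626 CPM in sham. On day 7 MCAO C had the lowest neuronal sum and the highest microglia sum, and also the lowest *Camk2a*, *Camk2b*, *Camk4*, *Dlg3*, *Shank2*, *Shank3* and *Nrgn* of its group, but its highest *Shank1*. Of the 6 excitatory neuron markers 1 fell on day 7 and 2 over the 5 times. Of the other lists, on day 7, 2 of 7 inhibitory neuron markers fell, and 2 of 6 thalamus, 3 of 8 astrocyte and 1 of 8 oligodendrocyte markers rose, while 0 of 7 striatum, 0 of 6 granulocyte and 0 of 2 T cell markers tested passed. The part of these cell types in the falls was not tested, and the covariate described next cannot separate fewer neurons from less RNA per neuron.

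When the mean log2 level of the pan-neuronal markers was added to the fit as a covariate, the count on day 7 went from 3 to 0 and that over the 5 times from 4 to 2, with 0.14% and 6.88% of all genes passing. *Camk4* (-0.32, adjusted p = 0.00593) and *Shank3* (-0.45, adjusted p = 0.0196) still passed over the 5 times. *Nrgn* went to -0.37 (adjusted p = 0.0882) and *Camk2a* to -0.10 (adjusted p = 0.417). On day 7 *Nrgn* stood at -0.71 (adjusted p = 0.485) and *Camk4* at -0.20 (adjusted p = 0.791). The covariate itself differs between MCAO and sham.

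Leaving out together the 5 libraries that agreed least with their groups, an alternative added after the data had been seen, gave 5 members over the 5 times (14.4% of all genes passed), the 4 above and *Dlg4* (-0.32, adjusted p = 0.000215). It gave 4 on day 7 (7.23% of all genes), the 3 above and *Dlg4*. It gave 3 on day 3 (14.9% of all genes, up from 8.07%), with *Camk2a* (-0.43, adjusted p = 0.0192) and *Shank2* (-0.62, adjusted p = 0.0331) beside *Camk4*, and *Camk4* alone at 12 h (0.381%).

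The 9 genes did not all vary together over the 48 libraries. The highest correlation between members was that of *Camk4* and *Nrgn* (r = 0.713, log2 CPM) and the lowest that of *Camk2b* and *Shank1* (r = -0.496), and the libraries share groups and depth, so no test is given. Among 9862 genes with a mean of at least 10 CPM, the gene most like *Camk2a* was *Cyfip2* (r = 0.905), followed by *Arhgap32* and *Rasgrf2*. The nearest to *Nrgn* were *Kcnab2* (r = 0.887), *Scrt1* and *Hlf*, and to *Camk4* they were *Rbfox1* (r = 0.833), *Nptn* and *Ngef*. *Camk2b* was nearest to *Arel1* (r = 0.791), *Tomm70a* and *Ankrd63*. For the scaffold genes they were *Dync1i1* (r = 0.916), *Rtn1* and *Rnf157* for *Dlg3*, *Cbx6* (r = 0.825), *Ppp2r1a* and *Phyhip* for *Dlg4*, *Atf4* (r = 0.820), *Ywhah* and *Fam171a2* for *Shank1*, *Dscam* (r = 0.779), *Lrrc4* and *Fam131a* for *Shank2*, and *Gsk3b* (r = 0.790), *Tnk2* and *Ccdc32* for *Shank3*. No member was among the 3 nearest genes of another.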

How the data were processed

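Per the labels and the study's methods, polyadenylated RNA was made into 3′ libraries (QuantSeq FWD) with ERCC spike-ins, and the authors trimmed reads, removed ribosomal reads, aligned with STAR 2.5.2b to GRCm38 and counted with HTSeq. The authors deposited raw counts per gene for each of 48 libraries. A normalized matrix was not used. A median of 33.5% of reads were not uniquely aligned, 23.5% lay on no feature and 0.400% were ambiguous, and spike-ins took 3.71% to 5.97%. These rows stayed out of library sizes.

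Groups came from the labels. Genes with more than 10 counts in total (19970) entered 1 edgeR 4.0.16 quasi-likelihood fit (R 4.3.3, limma 3.58.1) of all groups with TMM normalization, and Benjamini-Hochberg adjusted p-values ran over all genes tested, with a threshold of 0.05. SE is the absolute log2 fold change divided by the square root of F. Depth ranged from 1522668 to 2826735 gene counts per library, and intervals and p-values do not separate counting error from other spread.

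Alternatives were DESeq2 1.42.0, its size factors, spike-in scaling, other filters, the thresholds of the study, a replicate block, a pan-neuronal covariate, only the groups compared and each library left out. Leaving out 5 libraries together and the pairs of times were added after the data were seen. The scripts were tested on simulated data. The 9 genes and all lists were chosen with earlier results of these data known. All 9 are named, then from each of the pathway lists at most 3 genes per direction of largest change among those that passed, and for each member the 3 genes of highest correlation.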

Additional observations from a re-analysis of the deposited data

Results flagged for a closer look

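Single libraries lay far from their group for 5 of 99 combinations of gene and group, by Dixon's criterion, which flags about 1 in 20 by chance, and for none of the 11 groups of *Camk2a* to *Camk2b* ratios. At 12 h after MCAO library D had 314 CPM of *Camk4* (next 226) and 805.3 CPM of *Dlg4* (next 473), the highest of the group for both. In the 12 h shams library C had 143 CPM of *Shank1* (next 456), the lowest. At 3 h after MCAO library E had 78.8 CPM of *Shank2* (next 58.3), and on day 3 after MCAO library C had 10.5 CPM of *Shank3* (next 18.2).

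The MCAO against sham difference of *Shank1* on day 7 minus that at 12 h was -1.74 ± 0.49 on the log2 scale (edgeR adjusted p = 0.0485), a pair chosen after the values were seen out of 10, and it passed for no other member or pair of times. The adjusted p was 0.05 or above without most single libraries of these groups, up to 0.132 without 12 h sham C.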

How the results depend on the processing

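Of 460 member fold changes under other settings 427 kept their direction and side of the threshold, 10 lost and 14 gained the call and 9 turned direction, and of 378 with 1 library left out 346 kept both, 26 lost and 6 gained it, where most of those lost are of the *Shank1* difference between day 7 and 12 h. The turned values are all of estimates that did not pass: *Camk2a* at 3 h (-0.097 with spike-in scaling, -0.046 with the pan-neuronal covariate), at 12 h (0.018 with the replicate block) and on day 3 (0.026 with the covariate), *Dlg3* at 3 h (-0.084 and -0.051) and over the 5 times (0.059 with the covariate), and *Dlg4* (0.23) and *Nrgn* (0.17) on day 3 with the covariate. The *Camk2a* to *Camk2b* log2 ratio on day 3, 0.05, ranged from -0.055 to 0.23 without single libraries and was below 0 without MCAO A (-0.047), MCAO C (-0.025), sham B (-0.042) or sham D (-0.055).

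Against sham, the 0 members of 12 h became 1 by DESeq2 (519 genes called), with the covariate (466) and without the 5 libraries of lowest agreement (76). The 1 of day 3 became 0 under the thresholds of the study (780 genes called), with the covariate (554) and with the 2 groups fitted alone (1151), 2 with spike-in scaling (1646) and 3 without the 5 libraries (2968). The 3 of day 7 became 1 under the thresholds of the study (664 genes called) and with spike-in scaling (1155), 0 with the covariate (28) and 6 with the 2 groups alone (1303). The 4 over the 5 times became 1 under the thresholds of the study (950 genes called) and 2 with the covariate (1373). Against control, the count of 0 became 1 with spike-in scaling at 12 h (686 genes called) and on day 7 (632), and 4 with it on day 3 (2157). It became 2 at 12 h (701) and 1 on day 3 (2580) without the 5 libraries. On day 7 it became 1 by DESeq2 (923), with edgeR's expression filter (749) and with the 2 groups alone (599). With the 2 groups alone it also became 1 at 24 h (387) and for the 24 h sham (69). Spike-in scaling moved the median of all genes by -0.10, -0.11, 0.12, -0.24 and 0.08 in the order of the times. With 1 library left out the counts ranged from 0 to 1 at 12 h against sham and against control, 0 to 1 on day 3, 1 to 4 on day 7 and 4 to 5 over the 5 times. The 1 at 12 h against sham came without MCAO D (404 genes called) or without sham C (65), and that against control without MCAO D (379). Except where a value or the setting itself shows it, the cause was not tested.

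No pairing of samples by replicate letter was seen, although such a check cannot exclude one. Over 20 MCAO and sham pairs of one letter the correlation of deviations was -0.31 to 0.17 (8 over 0.1), and the same letter was highest in 6. The highest correlation of all was 0.72, between 12 h MCAO D and a 12 h sham of another letter, and its cause was not tested. With the replicate letter as a block the counts of members passing were 0, 0, 0, 1 and 3 in the order of the times and 4 over them, as without it (1398 genes called on day 3, 1559 on day 7 and 2312 over the 5 times). In simulated counts with 4 or 5 libraries a group, the day 7 comparison found 74% of genes changed by a log2 of 1 and 8% of those changed by 0.5, and the mean over the times found 100% and 83%.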
